A study of Saccharomyces cerevisiae with 3 samples.

Results

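The transcript levels of a budding yeast gcr1 null mutant and its wild type were compared at 60 min after glucose was given to cells growing on pyruvate. The comparison comprised every gene that had a platform gene symbol and a value on the 60 min array, 5596 of 5598 genes, each taken as the mean over its probes. Both strains had been grown to early or middle log phase in YEP, a rich medium of yeast extract and peptone, with 3% pyruvate as the carbon source. Total RNA of the mutant and the wild type was labelled with Cy5 and Cy3 and hybridised together on 1 Agilent array for each time, at 0, 20 and 60 min. The sources used here give neither the strain background nor the extent of the GCR1 deletion, the number of cultures or the glucose concentration.

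Gcr1 is a DNA-binding activator that works with Rap1 and Gcr2 at the promoters of glycolytic genes, and cells without it grow poorly on glucose. Glucose normally brings yeast into a fermenting state, in which glycolytic and ribosomal genes are transcribed strongly and genes for respiration, for storage and for other carbon sources are repressed. Many enzymes of central metabolism are encoded by pairs of isozymes that respond differently to glucose.

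The deposited values were log2 ratios, so that 1.0 marks a 2-fold difference between the strains and 0 marks none. Which strain forms the numerator is not stated in the labels. A ratio of mutant to wild type is likely, because the array title names the null mutant and the design text puts it before the wild type. GCR1 itself (YPL075W) had a positive ratio of 1.51 at 60 min, with its 2 probes at 1.5 and 1.53, after 0.97 at 0 min and 0.91 at 20 min. That goes against the likely direction if the probes lie in the deleted part, and checks nothing if they lie outside it. Values are therefore described as positive or negative, the positive side being that of GCR1. The protein-coding genes next to GCR1 on its chromosome, GPI2 and YTA6, had -0.06 and 0.42.

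There was 1 array, so no difference between the strains has a replicate check, and no p-value is given. Without a dye swap, a probe's preference for Cy5 or Cy3 cannot be told apart from a strain difference. The error that could be read was that between probes of the same gene. In 3572 genes with 2 probes the probes differed by a median of 0.11, and 95% of the pairs differed by less than 0.38. Both probes read the same labelled RNA, so this error leaves out variation between cultures and labelling reactions. Of 1032 such genes beyond 2-fold, 913 (88.5%) had both probes beyond 2-fold, and 0 had probes on opposite sides of 0.

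The strains differed at least 2-fold in 29.8% of the genes at 60 min. On the positive side were 906 genes (16.2%), and on the negative side 759 (13.6%). The median gene stood at 0.05, and the middle of the distribution, from the lower to the upper quartile, ran from -0.57 to 0.68. The positive side reached farther. At least 4-fold were 254 positive and 156 negative genes, at least 8-fold 80 and 15, and at least 16-fold 18 and 3. Beyond 32-fold lay 6 positive genes and 0 negative genes. Genes of low signal, recognised by ratios of small whole numbers, made up 116 of the negative genes beyond 2-fold and 6 of the positive ones. Their ratios were judged relative to -0.75, the commonest value, which was taken as a ratio of 1 to 1. Low-signal genes are thereby shifted to the negative side, and the part of this in the split was not tested.

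**Figure D1:**
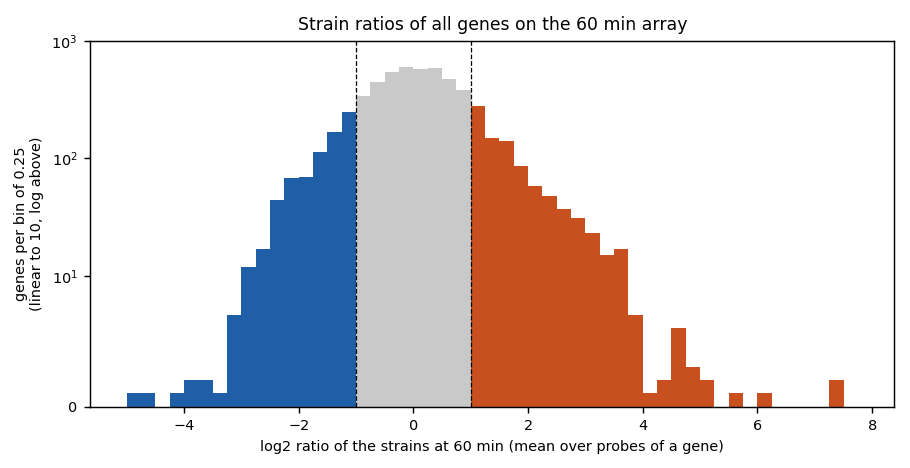
Number of genes per bin of 0.25 (vertical axis, linear to 10 and logarithmic above) against the log2 ratio of the strains at 60 min (horizontal axis), with genes at least 2-fold positive in orange and at least 2-fold negative in blue. The positive tail reaches 7.40 and the negative tail -4.88.

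The 6 genes beyond 32-fold served unrelated pathways. GCN4, the translationally controlled activator of amino acid synthesis genes, had 7.40, a 169-fold difference, with its probes at 7.38 and 7.41. GPM2, a relative of the glycolytic phosphoglycerate mutase GPM1, had 7.35 from a single probe. FMS1, the polyamine oxidase that supplies a precursor of pantothenate, had 6.11, a 68.8-fold difference. DLD3, a cytosolic dehydrogenase of 2-hydroxyglutarate and D-lactate that is a classic target of mitochondrial retrograde signalling, had 5.63. The minor alcohol dehydrogenase ADH5 had 5.10, and YRO2, a plasma membrane protein related to the heat shock protein Hsp30, had 5.04. Except for GCN4 these genes stood between 0.25 and 2.31 at 0 min, at 0.81 for GPM2, 0.97 for FMS1, 1.53 for DLD3, 2.31 for ADH5 and 0.25 for YRO2. GCN4 stood at 7.66 before glucose, so its ratio at 60 min was not one that appeared after the shift. Among the 20 highest were also SUE1 (4.55), which takes part in the breakdown of unstable cytochrome c, NDJ1 (3.96), a meiotic telomere protein, and URH1 (3.94), the uridine nucleosidase.

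At the negative end stood nutrient transporters and phosphatases. HXT2, a glucose transporter of high affinity, was lowest at -4.88, a 29.4-fold difference. PHO84, the high-affinity phosphate transporter, had -4.57, the acid phosphatase PHO3 -4.16 and SPL2, a small protein that controls low-affinity phosphate uptake, -3.82. MTH1, a corepressor of hexose transporter genes, had -3.06, and RSB1, a sphingoid base exporter, -3.12. Others among the 20 lowest were the cell wall genes DSE4 (-3.14) and CWP1 (-2.93), the tRNA pseudouridine synthase PUS2 (-3.21), the meiotic recombination gene MND1 (-2.92) and the ribosomal protein genes RPL9A, RPL9B, RPL14A, RPL14B and RPL26A. MGA1 (-3.75) and the unnamed reading frame YCR050C (-3.07) were of low signal.

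Glycolytic genes did not lie on a common side. Of 22 measured genes of the pathway and its control, 11 were within 2-fold. Beyond it were 6 (27.3%) on the positive side and 5 (22.7%) on the negative side, against 16.2% and 13.6% of all genes. The median was 0.23 against 0.05 for all genes. The 3 sugar kinases were all above 0. Glucokinase GLK1 had 3.40, with its probes at 3.38 and 3.42. Hexokinase 1 (HXK1) had 1.16, and hexokinase 2 (HXK2), the main form during growth on glucose, had 0.94. From there on the sign turned, with phosphoglucose isomerase PGI1 at -1.65. The subunits of phosphofructokinase had -1.02 for PFK1 and -0.71 for PFK2.

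In the lower part of glycolysis aldolase FBA1 (0.35), triosephosphate isomerase TPI1 (-0.47) and phosphoglycerate kinase PGK1 (-0.29) were all within 2-fold. Phosphoglycerate mutase GPM1 had -2.25, with its probes at -2.31 and -2.19, enolase ENO2 had -1.91 and pyruvate kinase CDC19 -2.33. These were the steps still beyond 2-fold on the negative side, together with PGI1 and PFK1. The main glyceraldehyde-3-phosphate dehydrogenase TDH3 had 0.10. The alternative forms of these enzymes were on the positive side, TDH1 at 4.47, TDH2 at 1.24, ENO1 at 0.89 and the second pyruvate kinase PYK2 at 0.75. So were GPM3, at 0.63, and GPM2, which are relatives of GPM1. Whether they act as phosphoglycerate mutases was not tested. The genes that set the level of the activator fructose 2,6-bisphosphate were PFK26 (0.06) and PFK27 (-0.90), which make it, and FBP26 (1.05), which removes it. TDH2 and TDH3, and ENO1 and ENO2, are close copies whose probes can bind each other's RNA, so the split between them is uncertain.

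The values before glucose and at 20 min stood beside these as follows. GPM1 went from -5.55 before glucose to -3.75 at 20 min and -2.25 at 60 min, and ENO2 from -4.73 to -1.80 and -1.91. For TDH3 the 3 values were -3.83, -0.24 and 0.10, and for FBA1 -2.96, -0.28 and 0.35. CDC19 had -3.43, -2.50 and -2.33. All 5 genes were thus nearer to 0 at 60 min than at 0 min, and TDH3 and FBA1 had come within 2-fold while GPM1, ENO2 and CDC19 had not. TDH1 took the other course, from -0.94 to 3.53 and 4.47.

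The activators of these genes were measured as well. TYE7, which also activates glycolytic genes, had 2.82 at 60 min, and GCR2, the partner of Gcr1, 0.21. The general regulatory factors ABF1 (-1.25) and REB1 (-1.05) were at least 2-fold negative, and RAP1 (-0.92) was within 2-fold.

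**Figure D2:**
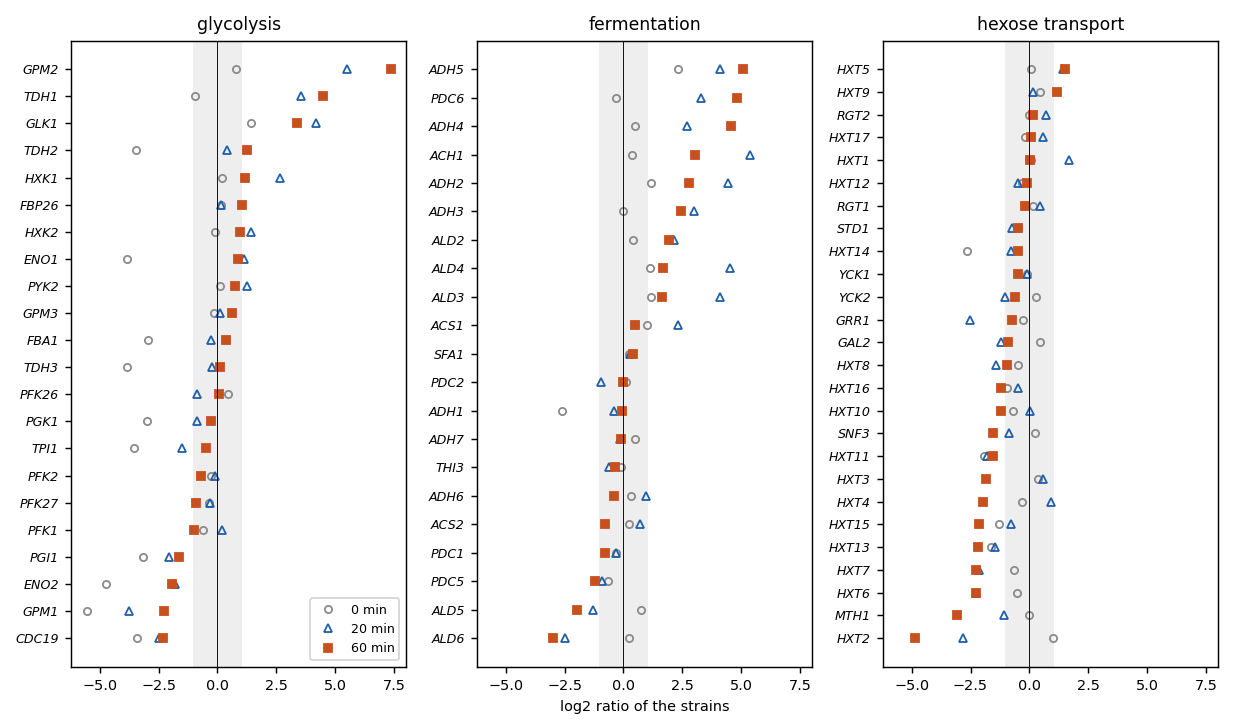
Log2 ratio of the strains (horizontal axis) for each measured gene of glycolysis, fermentation and hexose transport at 0 min (open circles), 20 min (open triangles) and 60 min (filled squares), ordered by the 60 min value, with the zone within 2-fold shaded. GPM2 reached 7.35 and HXT2 -4.88 at 60 min.

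Fermentation enzymes were divided as well. Of 21 genes, 9 (42.9%) were at least 2-fold positive and 3 (14.3%) negative, against 16.2% and 13.6% of all genes. The main pyruvate decarboxylase PDC1 had -0.77 and its close relative PDC5 -1.19, while PDC6, a minor form, had 4.81. The regulators PDC2 and THI3, listed with them, had -0.02 and -0.35. Among alcohol dehydrogenases the main form ADH1 had -0.05. The mitochondrial ADH3 had 2.44, the ethanol-oxidising ADH2 2.77, ADH4 4.57 and ADH5 5.10. ADH6, ADH7 and SFA1, which act on other alcohols and aldehydes, lay between -0.40 and 0.42, ADH7 at low signal. Of the aldehyde dehydrogenases, ALD6 (-2.99) and ALD5 (-1.99) were negative and ALD4 (1.69), ALD2 (1.93) and ALD3 (1.63) positive. ACH1, which transfers coenzyme A between acetate and succinate, had 3.03, and the acetyl-CoA synthetases ACS1 and ACS2 had 0.47 and -0.76, that of ACS1 at low signal.

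Hexose transporters were mostly negative. Of 18 transporter genes 10 (55.6%) were at least 2-fold negative, 4 of them at low signal, and 2 (11.1%) positive. The shares over all genes were 13.6% and 16.2%, and the median of the transporters was -1.21. Besides HXT2, the high-affinity transporters HXT6 and HXT7, near-identical copies, had -2.28 and -2.27. HXT4 had -1.96 and the low-affinity transporter HXT3 -1.84, whereas the other low-affinity form, HXT1, had 0.02. HXT15 had -2.14, HXT8 -0.94, the galactose permease GAL2 -0.92 and HXT17 0.06. Positive were HXT5 (1.5), which is used by slowly growing cells, and HXT9 (1.17). The values of HXT10, HXT11, HXT12, HXT13, HXT14 and HXT16 were of low signal. The glucose sensors had -1.53 for SNF3, the sensor of low glucose, and 0.16 for RGT2, the sensor of high glucose. RGT1, the repressor of transporter genes, had -0.19. The other members of the glucose induction pathway, GRR1, YCK1, YCK2 and STD1, lay between -0.75 and -0.47.

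The glucose repressors MIG2 (-2.01) and MIG3 (-1.93) were negative, whereas MIG1 (-0.44) was within 2-fold and NRG1, a repressor of glucose-repressed genes, had 1.91. Subunits of the Snf1 kinase, which relieves glucose repression, lay between -0.37 (GAL83) and 0.97 (SIP2), and the kinase gene SNF1 had -0.07. Its upstream kinases were TOS3 (1.60), SAK1 (-0.55) and ELM1 (0.10). Of the activators of respiratory and gluconeogenic genes, HAP4, the limiting subunit of the Hap complex, had -1.99, ERT1, a factor linked to gluconeogenesis and ethanol use, 3.19, ADR1, the activator of ADH2, 1.01 and CAT8, the activator of gluconeogenic genes, -0.41. In the Ras and protein kinase A pathway, which carries the glucose signal to growth, 4 of 20 genes (20.0%) were at least 2-fold positive, a share near the 16.2% of all genes. GPG1, a putative partner of the G protein Gpa2, had 4.93, the phosphodiesterase PDE1 3.47 and the exchange factor SDC25 2.04. RAS1 (-1.45) and RGS2 (-1.02) were at least 2-fold negative, and RAS2 (0.42) was not.

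Of 40 genes of the respiratory chain and ATP synthase, 38 were at least 2-fold positive at 20 min and 6 at 60 min. The ATP synthase list, with its inhibitors, had a median of 0.02 at 60 min and 2.25 at 20 min, and 16 of its 17 genes were within 2-fold. The median of the 9 cytochrome oxidase subunits was 0.98, and 4 of them exceeded 2-fold on the positive side, namely COX5B (1.67), COX6 (1.47), COX9 (1.46) and COX12 (1.29). The NADH dehydrogenases and complex III had a median of 0.40, with the external NADH dehydrogenase NDE1 at -2.42. In the citric acid cycle the steps before 2-oxoglutarate were the positive ones, citrate synthases CIT1 (2.44) and CIT3 (2.55) and the isocitrate dehydrogenases IDP1 (2.80) and IDH1 (1.30), except that IDH2 had 0.93 and aconitase ACO1 -1.17. The steps after it lay between -0.67 (LSC2) and 0.95 (SDH4).

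CIT2, the peroxisomal citrate synthase, had 4.72, PYC1, a pyruvate carboxylase, 4.58 and DLD3 5.63. These are some of the targets of retrograde signalling, the route by which mitochondrial state alters nuclear genes. All were among the highest genes of the array and do not stand for every target. The regulators of the route were within 2-fold, RTG1 at 0.64, RTG2 at -0.03, RTG3 at 0.57 and MKS1 at 0.92. In gluconeogenesis and the glyoxylate cycle 8 of 18 genes (44.4%) were at least 2-fold positive and 2 (11.1%) negative. The shares over all genes were 16.2% and 13.6%. Fructose-1,6-bisphosphatase FBP1 had 2.28 and malate synthase MLS1 1.26, while PEP carboxykinase PCK1 (-0.46) and isocitrate lyase ICL1 (0.03), both central to the route, were within 2-fold. Among carboxylate transporters the mitochondrial pyruvate carrier genes split, with MPC1 at -0.54, MPC2 at 1.41 and MPC3 at -1.28, and the lactate permease JEN1 had 0.13.

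Of the 59 whole lists, glycerol metabolism had the highest median, 1.32 over 12 genes. At least 2-fold positive were 6 (50.0%), against 16.2% of all genes. The positive genes formed the branch of dihydroxyacetone and glycerol oxidation, with the kinases DAK1 (3.29) and DAK2 (3.74) and the reductases GCY1 (3.12) and YPR1 (3.66), and the synthesis genes GPD2 (1.71) and GPP2 (2.99). GPD1, the osmotically controlled form, had -0.22, and glycerol kinase GUT1 -1.03. In the pentose phosphate pathway NQM1, the second transaldolase, had 2.61, the dehydrogenase GND1 1.86 and the sedoheptulose bisphosphatase SHB17 1.28. Ribose-5-phosphate isomerase RKI1 had -1.56 and ZWF1, which feeds the pathway, -0.04, and the phosphoglucomutase PGM1, listed with them, was lowest at -2.11. Trehalose genes were within 2-fold in 7 of 8 cases, the exception being the trehalase NTH1 (1.53). In glycogen metabolism GSY1 (-1.32) and the primer GLG1 (-1.22) were negative, while GSY2 (1.20), the phosphorylase GPH1 (1.33) and the phosphatase-targeting gene PIG2 (2.32) were positive. Of 15 genes for galactose, sucrose and maltose use 5 (33.3%) were at least 2-fold negative, against 13.6% of all genes. All 5 were maltose genes, with MAL31 at -2.12, MAL11 at -1.68 and MAL12 at -1.40, while MAL13 had 0.98. Maltose genes are close copies.

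Isozymes were examined as pairs, listed after the values had been seen, so that the counts are a description and no test. Over 81 pairs of enzymes, chaperones and other related genes, the members differed by a median of 1.38 at 60 min, against 1.52 at 20 min and 0.38 at 0 min. The members were at least 2-fold apart in 51 pairs, at least 4-fold in 31 and at least 8-fold in 16, and in 10 pairs they were at least 2-fold on opposite sides. The 56 ribosomal protein gene pairs, many of which are too alike for their probes to separate, differed by a median of 0.27, and 4 of them were at least 2-fold apart.

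The pair farthest apart was GPM1 and its relative GPM2, with a gap of 9.60. PYC2 (-1.61) and PYC1 (4.58), the pyruvate carboxylases, followed with 6.2. Outside central carbon metabolism the orotate phosphoribosyltransferases URA5 (-1.60) and URA10 (3.52), the CTP synthases URA7 (-1.66) and URA8 (2.85) and the ribonucleotide reductase subunits RNR1 (-1.51) and RNR3 (3.56) split in the same way. So did the glucan synthases FKS1 (-1.60) and GSC2 (3.14) and the glutamate dehydrogenases GDH1 (-2.49) and GDH3 (1.69). The glycyl-tRNA synthetases GRS1 (-1.02) and GRS2 (1.75), the aldehyde dehydrogenases ALD6 and ALD4 and the glycogen synthases GSY1 and GSY2 completed the pairs on opposite sides.

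**Figure D3:**
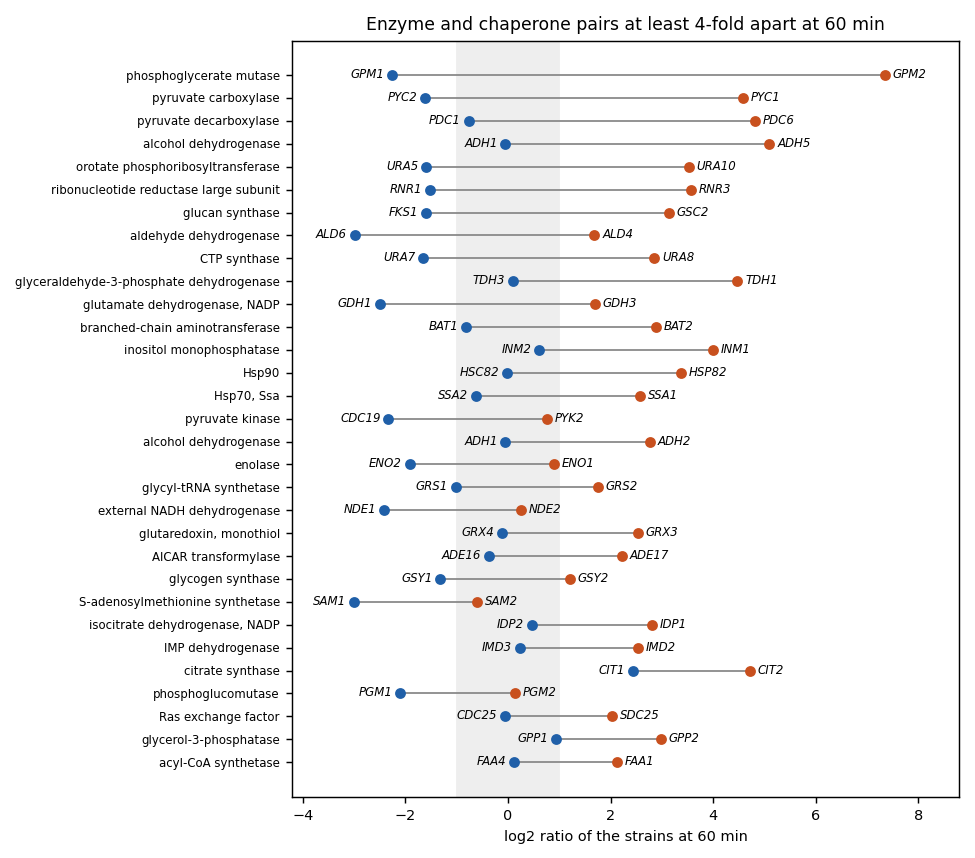
Log2 ratio of the strains at 60 min (horizontal axis) for the lower (blue) and higher (orange) member of the 31 pairs at least 4-fold apart, ordered by gap, with the zone within 2-fold shaded. GPM1 and GPM2 stand at -2.25 and 7.35.

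Of the 59 whole lists, the ribosomal protein genes had the lowest median. Of 136 genes 128 were at least 2-fold negative and 0 positive, with a median of -2.07. The large subunit had a median of -2.08, the small subunit -1.99 and the 5 genes of the stalk -1.60, and the corresponding values at 20 min were -0.66, -0.44 and -0.24. Lowest were RPL9A (-3.65) and RPL14A (-3.28) of the large subunit and RPS16B (-2.68) and RPS10B (-2.55) of the small one. Of the 8 genes within 2-fold, RPL15B (0.75) and RPS30B (0.09) were above 0, and RPS27A had -0.18 and RPS30A -0.36. RPL15B differed from its partner RPL15A (-1.98) by 2.74, the widest gap among the ribosomal pairs.

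Genes that build or serve ribosomes stood between the ribosomal proteins and the median gene. Of 142 ribosome assembly genes, 32 (22.5%) were at least 2-fold negative and 1 (0.7%) positive, against 13.6% and 16.2% of all genes. The median was -0.69, and 129 genes were below 0. These genes were farther from 0 at 20 min, when 80 were at least 2-fold negative and the median was -1.04. The nuclear export and maturation factors REA1 (-1.69), SDA1 (-1.56) and NMD3 (-1.43) and the processome protein UTP21 (-1.55) were among the lowest, and RRP14 (1.13) was the positive exception. Of 37 genes of RNA polymerases I and III and their factors, 5 (13.5%) were at least 2-fold negative and 3 (8.1%) positive. The shares over all genes were 13.6% and 16.2%. The median was -0.30, against -0.845 at 20 min, when 17 genes were at least 2-fold negative. RPA135 (-1.63) and RRN3 (-1.52) of polymerase I were lowest. The positive genes were MAF1, the repressor of polymerase III, at 1.89, RRN10 (1.43) and UAF30 (1.12). Of 23 cytosolic aminoacyl-tRNA synthetase genes, 22 were below 0 and 10 beyond 2-fold on the negative side, against 3 at 20 min, and the median was -0.87. Prolyl-tRNA synthetase YHR020W had -2.24, the phenylalanyl subunit FRS2 -1.50 and the methionyl enzyme MES1 -1.48. Of 43 translation factor genes 38 were within 2-fold. At least 2-fold negative were 3 (7.0%) and positive 2 (4.7%), against 13.6% and 16.2% of all genes. The negative ones included the poly(A)-binding protein PAB1 (-1.27) and the deoxyhypusine hydroxylase LIA1 (-1.32). The positive ones were EAP1, an inhibitor of cap-dependent initiation, at 1.53 and DYS1 at 1.49. The ribosome-associated chaperones SSB1 (-1.69), SSB2 (-1.57) and ZUO1 (-1.03) were negative as well.

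The regulators of ribosomal genes were all within 2-fold. IFH1 had -0.07, FHL1 -0.93, SFP1 0.27, HMO1 0.18 and STB3, which binds promoters of ribosome assembly genes, 0.85. Mitochondrial ribosomal proteins did not follow the cytosolic ones, with a median of 0.27 over 71 genes. At least 2-fold positive were 4 (5.6%), against 16.2% of all genes, and 0 were at least 2-fold negative.

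**Figure D4:**
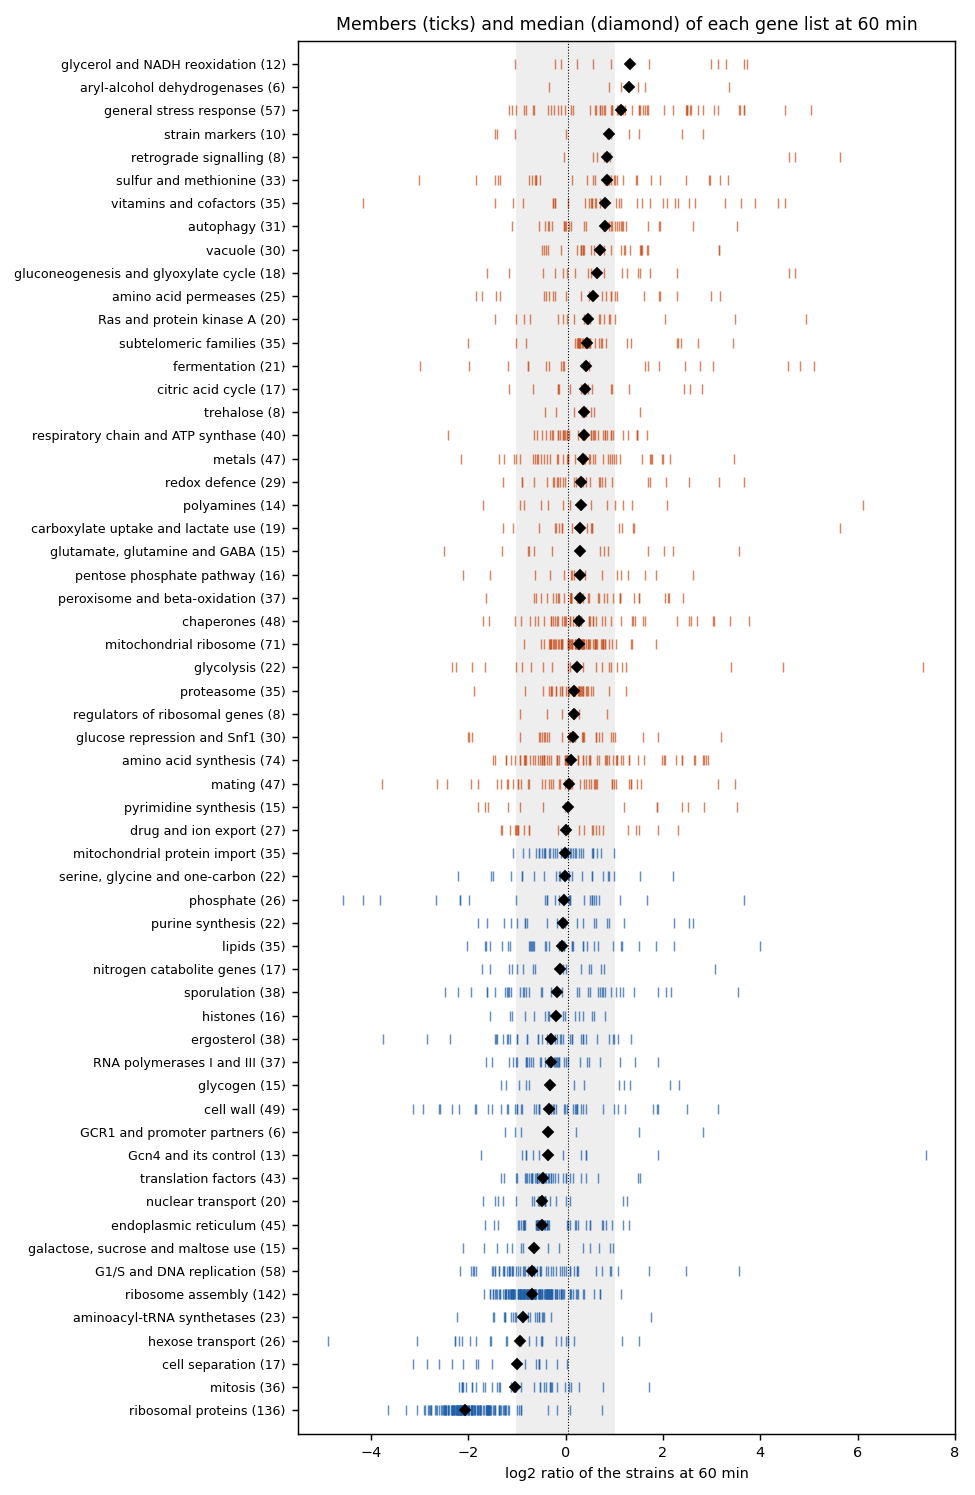
Log2 ratio of the strains at 60 min (horizontal axis) of each member (ticks) and the median (diamond) of the 59 gene lists, with the number of measured members in brackets, the zone within 2-fold shaded and the median of all genes dotted. The medians run from -2.07 for ribosomal proteins to 1.32 for glycerol metabolism.

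General stress genes, the targets of the factors Msn2 and Msn4, had a median of 1.13. Of 57 such genes 31 (54.4%) were at least 2-fold positive and 3 (5.3%) negative, against 16.2% and 13.6% of all genes. After YRO2 the highest were the secreted glycoprotein YGP1 (4.50), catalase CTT1 (3.66), the nucleotidase PHM8 (3.66) and MOH1 (3.59). At least 2-fold negative were the glutathione peroxidase GPX2 (-1.17), the factor GIS1 (-1.10) and the kinase RCK1 (-1.01). MSN2 itself had 1.22 and MSN4 -0.36. Of 48 chaperone genes 14 (29.2%) were at least 2-fold positive and 3 (6.3%) negative, against the same shares of all genes, with a median of 0.28. The disaggregase HSP104 had 2.70, its mitochondrial relative HSP78 3.04, the small heat shock protein HSP42 3.77, the inducible Hsp90 HSP82 3.37 and the J protein SIS1 2.53. Close relatives differed, with the constitutive Hsp90 HSC82 at -0.02, the Hsp70 genes SSA1 at 2.58 and SSA2 at -0.63, and the Hsp110 genes SSE2 at 2.28 and SSE1 at 0.32. The subunits of the CCT folding ring lay between -0.91 (CCT6) and 0.50 (CCT8). In redox defence 6 of 29 genes (20.7%, against 16.2% of all genes) were at least 2-fold positive and 1, the methionine sulfoxide reductase MXR1 (-1.29), negative. The glutaredoxins GRX1 (3.15), GRX2 (2.07) and GRX3 (2.53) were positive and GRX4 had -0.12, and of the old yellow enzymes OYE2 had 1.74 and OYE3 0.69, whereas the peroxiredoxin TSA1 (-0.16) and thioredoxins TRX1 (-0.06) and TRX2 (0.42) were within 2-fold.

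Vacuolar breakdown genes were mostly above 0, in 10 of 11 vacuolar protease genes and their inhibitors and in 21 of 31 autophagy genes. Of the 11 protease genes and inhibitors 8 (72.7%) were at least 2-fold positive, against 16.2% of all genes, and 0 negative. Their median was 1.54. Aminopeptidase APE1 had 3.16, the bleomycin hydrolase LAP3 3.16, and the main proteases PRB1 and PEP4 1.68 each. Autophagy genes were at least 2-fold positive in 12 of 31 cases (38.7%) and negative in 1 (3.2%), against 16.2% and 13.6% of all genes. ATG41 had 3.52, the cargo receptor ATG19, which delivers Ape1 to the vacuole, 2.62, ATG5 1.93 and ATG8, which coats the autophagosome, 1.92. The kinase gene ATG1 had -0.28, at low signal. The proton pump of the vacuole had a median of 0.52, and its highest gene was VMA4 at 1.54. Proteasome genes were nearer to 0, with 33 of 35 within 2-fold, the assembly factor UMP1 at 1.24 and the activator BLM10 at -1.88.

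Amino acid synthesis differed from pathway to pathway, although GCN4 was the highest gene on the array. The median of the 9 lysine genes was 2.05, and 6 of them were beyond 2-fold on the positive side, with LYS1 (2.85), LYS9 (2.67) and LYS20 (2.64) at the top. Arginine genes had 0.81, led by CPA1 (2.92), a subunit of carbamoyl phosphate synthetase, and CAR2 (2.39) of arginine breakdown. In histidine synthesis HIS5 (2.39) and HIS4 (1.98) were positive, HIS1 had -0.52 and HIS3, at low signal, was lowest at -1.44. Branched-chain genes had a median of -0.36, with LEU2 at 2.82 and BAT2 at 2.89 but ILV5 at -1.13. The aromatic genes had -0.18, and TRP4 (-1.23), TRP1 (-1.04) and ARO4 (-0.93) were lowest. Of the genes that control GCN4 translation, GCN1 had -1.73 and the kinase GCN2 -0.81, and PCL5, the cyclin that directs Gcn4 breakdown, had 1.89.

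In sulfur metabolism 6 of 10 sulfate assimilation genes (60.0%) were at least 2-fold positive, against 16.2% of all genes, and 0 negative (median 1.10). The positive ones included MET22 (2.97), MET14 (2.95) and MET5 (1.75). The later steps divided. S-adenosylmethionine synthetase SAM1 had -3.01 and methionine synthase MET6 -1.36, while the transporters SAM3 (3.16) and MUP1 (1.94) and cystathionine lyase STR3 (2.48) were positive. Of the regulators MET28 had 3.34 and MET32 -1.39.

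Nucleotide synthesis was divided even within pathways. Of 15 pyrimidine genes 7 (46.7%) were at least 2-fold positive and 4 (26.7%) negative, against 16.2% and 13.6% of all genes. URA2, which carries out the initial steps, had 1.87, URA3 2.39 and the uracil permease FUR4 2.51. The dehydrogenase URA1 had -1.79 and uridine kinase URK1 -1.19. URA3, LEU2, HIS3 and TRP1 are also common marker genes, and no source used here names the markers of these strains. Of 10 genes often used as markers 4 were at least 2-fold positive and 3 negative. In purine metabolism ADE12 (2.62) and ADE17 (2.23) were positive, and GUA1 (-1.27), APT1 (-1.80) and AAH1 (-1.62) of the guanine branch and salvage were negative, with IMP dehydrogenase IMD2 at 2.53 and IMD4 at -1.12.

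Vitamin and cofactor genes included several of the highest values. At least 2-fold positive were 17 of 35 genes (48.6%) and negative 3 (8.6%), with a median of 0.82. The shares over all genes were 16.2% and 13.6%. The pyridoxine genes SNZ1 (4.51) and SNO1 (3.89) and the thiamine genes THI4 (4.37), THI2 (3.6) and THI21 (2.65) were highest. PHO3, which is known as a thiamine-repressed phosphatase and so was placed in this list as well, stood at the other end. NAD synthesis from tryptophan was positive, with BNA2 at 3.29, BNA5 at 2.55 and BNA1 at 2.31. ECM31, which starts pantothenate synthesis, had 2.0. Of the polyamine genes beside FMS1, the exporters split into TPO2 (2.09) and TPO1 (-1.69), and the synthases SPE3 and SPE4 had -0.94 and -0.50.

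Nitrogen and transport genes were mixed. The GABA route of UGA2 (3.57), UGA1 (2.20) and GAD1 (2.02) was positive. The allantoate permease DAL5 had 3.08, while the general amino acid permease GAP1 had -1.72 and the ammonium permease MEP3 -1.55. Of 25 amino acid permeases 8 were beyond 2-fold on the positive side and 4 on the negative side, with the dicarboxylic permease DIP5 at 2.99 and the vacuolar transporter VBA1 at 2.29. In the phosphate list PHO89 (-2.17), PHO11 (-1.98) and PHO12 (-2.67) joined PHO84 on the negative side, whereas the acid phosphatase PHO5 had 0.69, the vacuolar phosphatase PHO8 1.67 and the pathway regulators PHO4 and PHO81 0.08 and 0.59. The phosphatases PHO3, PHO5, PHO11 and PHO12 resemble each other, and their probes may not separate them. The heme oxygenase HMX1 had 3.46, the high-affinity copper transporter CTR1 2.14 and the zinc transporter ZRT1 1.98, and the ferroxidase FET3 had -1.36. The proton pumps PMA1 and PMA2 of the plasma membrane had 1.45 and 1.28.

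Lipid pathways differed. Of 24 ergosterol synthesis genes 8 were at least 2-fold negative and 0 positive, and all 8 act after squalene epoxidation, with ERG3 at -2.37, ERG6 at -1.46 and ERG11 at -1.40. The earlier steps lay between -0.56 (MVD1) and 0.32 (ERG9). Of 12 fatty acid synthesis genes 4 were at least 2-fold negative and 0 positive. The elongases ELO3 (-2.04) and ELO2 (-1.65), which make very long fatty acids, and the synthase FAS1 (-1.56) were negative, and the desaturase OLE1 had -0.03. Of 23 phospholipid synthesis genes 6 (26.1%) were beyond 2-fold on the positive side and 3 (13.0%) on the negative side, with a median of 0.13. The shares over all genes were 16.2% and 13.6%. The methyltransferases CHO2 (-1.30) and OPI3 (2.23), which act in sequence, were on opposite sides. INM1, an inositol monophosphatase, had 4.0 and inositol-phosphate synthase INO1 0.36.

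In the G2/M list 19 of 36 genes (52.8%) were at least 2-fold negative and 1 (2.8%) positive, with a median of -1.03. The shares over all genes were 13.6% and 16.2%. The septum synthase CHS2 (-2.19), the factor SWI5 (-2.14), the cyclin CLB1 (-2.12) and the cytokinesis gene HOF1 (-2.12) were lowest, and the factor MCM1 (1.72) was the positive exception. Cell separation genes had a median of -0.99, with AMN1 at -2.85, PIR1 at -2.61 and SCW11 at -2.33. In G1/S and replication 22 of 58 genes (37.9%) were at least 2-fold negative and 4 (6.9%) positive. CLN2 had -1.94, MCM7 of the replicative helicase -1.90 and DNA ligase CDC9 -1.89. The positive genes were the cohesin subunit IRR1 (1.07) and the ribonucleotide reductase subunits RNR3 (3.56), RNR4 (2.48) and RNR2 (1.72), against RNR1 at -1.51. Of 16 histone and histone regulator genes 3 (18.8%, near the 13.6% of all genes) were at least 2-fold negative, HHO1 (-1.15), HTA1 (-1.11) and the regulator HIR2 (-1.56).

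Of 47 mating genes 8 (17.0%) were at least 2-fold positive and 10 (21.3%) negative, against 16.2% and 13.6% of all genes. The pheromone genes of both mating types were negative, MF(ALPHA)2 at -3.78, MF(ALPHA)1 at -1.19, MFA1 at -2.45 and MFA2 at -2.65, the last at low signal. The receptors had -0.75 for STE2, at low signal, and -0.49 for STE3. The fusion genes PRM1 (3.47) and PRM4 (3.13) and the kinase FUS3 (1.55) were positive. Sporulation genes had 8 of 38 (21.1%) at least 2-fold positive and 11 (28.9%) negative, and 7 of the 38 were of low signal. REC8 had 3.55 and REC114 -2.48.

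The values at 60 min were set beside those at 20 min. Of the 906 genes at least 2-fold positive at 60 min, 575 were so at 20 min (63.5%), which is 60.0% of the positive genes at 20 min. Of the 758 negative genes that also had a 20 min value, 412 were negative at 20 min (54.4%), which is 44.5% of the negative genes at 20 min. On the 20 min array 33.6% of the genes were beyond 2-fold, 17.1% positive and 16.5% negative, and before glucose 3.34% were, 1.09% positive and 2.25% negative. Of the genes positive at both times 288 were farther from 0 at 60 min, and of those negative at both times 158 were. Beyond 2-fold at 60 min but within 1.5-fold at 20 min were 154 positive and 181 negative genes. Among the positive ones were FUR4, at -0.15 at 20 min, HIS4 at 0.20, URA2 at 0.16 and NRG1 at 0.50. Among the negative ones were many ribosomal protein genes, RPM2 of mitochondrial RNase P, at -2.58 at 60 min and 0.23 at 20 min, GDH1, at 0.35 at 20 min, and NDE1, at -0.50 at 20 min. These were chosen after their values had been seen.

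The genes farthest from their 20 min value on the positive side were ADE17, which moved by 5.02, FUI1, the uridine permease, by 3.73, PRM5 by 2.81 and SER3 by 2.78. SER3, the phosphoglycerate dehydrogenase of serine synthesis, thereby went from -3.22 to -0.44. On the negative side SDH3 moved by -3.88, the fatty acyl-CoA synthetase FAA2 by -3.88, MDG1 by -3.72 and QCR2 by -3.6. For FAA2, FOX2 and POT1 of peroxisomal fatty acid oxidation the values at 20 min were 3.73, 4.81 and 3.59, and at 60 min -0.15, 1.41 and 0.29.

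**Figure D5:**
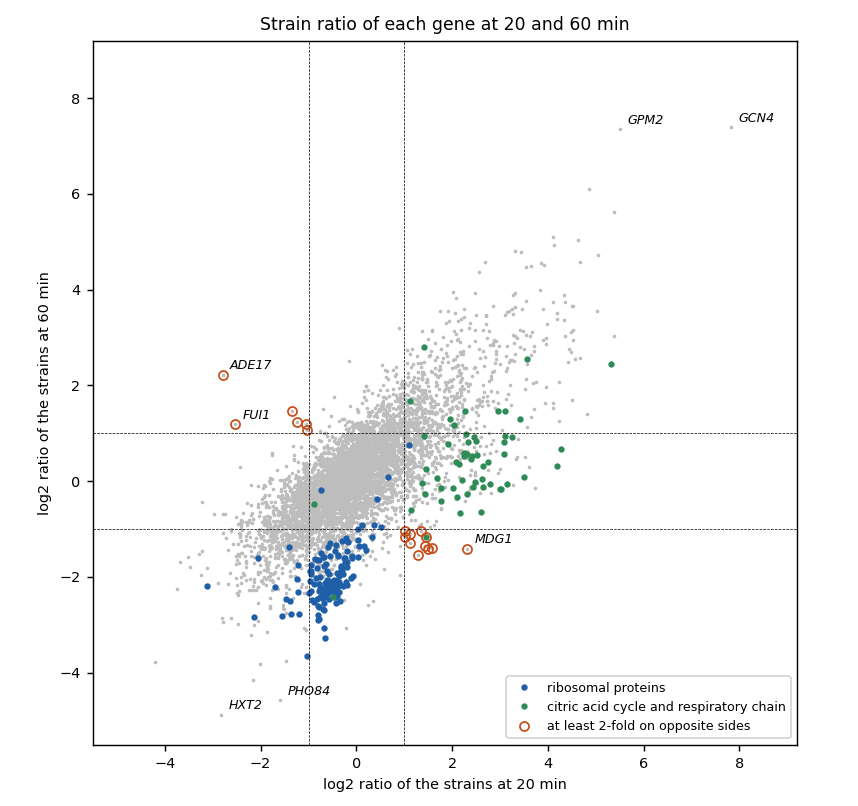
Log2 ratio of the strains for each gene at 60 min (vertical axis) against 20 min (horizontal axis), with dashed lines at 2-fold, ribosomal proteins in blue, citric acid cycle and respiratory chain genes in green and the 17 genes at least 2-fold on opposite sides circled. Most ribosomal protein genes lie below -1 at 60 min and above -1 at 20 min.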

How the data were processed

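Total RNA of the gcr1 mutant and the wild type was hybridised on 3 two-channel Agilent arrays, 1 for each time, per the labels. The deposited values were log2 ratios of the 2 channels, for 10807 probes. That the base is 2 was found from gaps between tied values, and no source used here gives the scanner software, background correction or normalisation. The 60 min column was not centred, with a median of -0.08 over all probes. Probes were named through the platform annotation (9202 with 1 gene symbol, 1605 with none), of which 9194 matched NCBI RefSeq R64. Probe values of a gene were averaged (2012 genes with 1 probe, 3572 with 2, 12 with 3 or 4). A gene was of low signal when every probe was missing or, relative to the column's commonest value of -0.75, matched (tolerance 0.001) the log2 of a fraction built from whole numbers up to 8.

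Intensities were not analysed here, so depth is unknown, and precision is limited by having 1 array a time. There were 59 gene lists. The members and lists were chosen with earlier results of these data known. The naming rule covered GCR1 and its partners, all sugar genes, the 20 highest and lowest genes, the 4 members at each end of every list subgroup, genes on opposite sides at 20 and 60 min and the 10 largest shifts each way. From these a selection is printed, made, like any other gene named, after the values were seen. Promoter motifs were planned and not analysed here. Thresholds of 1.5-fold and 3-fold, centring, probe summaries, low signal, probe number and array scaling were tried as alternatives. The calculation was tested on simulated data. Python 3.11.15, pandas 2.3.3 and numpy 2.4.6 were used.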

Additional observations from a re-analysis of the deposited data

Results flagged for a closer look

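Some genes stood at least 2-fold on opposite sides at 60 min and at an earlier time. With 1 array for each time these differences were not tested. Between 20 and 60 min there were 17 such genes. Going from the negative to the positive side were ADE17 (-2.79 at 20 min and 2.23 at 60 min), the uridine permease FUI1 (-2.54 and 1.20), the pheromone-induced membrane protein PRM5 (-1.35 and 1.46) and the unnamed reading frame YPL088W (-1.23 and 1.23). The mating-type genes HMLALPHA1 (-1.06 and 1.20) and MATALPHA1 (-1.03 and 1.07), which share sequence, were also among them, and HMLALPHA1 was of low signal at 20 min.

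Going from the positive to the negative side were genes of respiration and carbon use, namely aconitase ACO1 (1.46 and -1.17), glycerol kinase GUT1 (1.35 and -1.03), the ADP/ATP carrier PET9 (1.5 and -1.42), the pyruvate carrier MPC3 (1.11 and -1.28), MBR1 (1.58 and -1.40) and the mitochondrial elongation factor MEF2 (1.44 and -1.35). Permeases were DUR3 for urea (1.11 and -1.09), MEP3 for ammonium (1.29 and -1.55) and OPT2 for peptides (1.01 and -1.16), with DUR3 of low signal at 20 min and OPT2 at 60 min. The others were MDG1 (2.31 and -1.41) and the weak acid exporter PDR12 (1.0 and -1.04).

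Between 0 and 60 min, HXT2 went from 1.02 to -4.88, the acetate transporter ADY2 from 1.83 to -1.09 and PDR12 from 1.66 to -1.04. TDH2 went from -3.45 to 1.24 and YER138W-A from -1.42 to 1.76.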

How the results depend on the processing

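The counts of 906 positive and 759 negative genes moved to 1585 and 1371 at 1.5-fold and to 426 and 296 at 3-fold. With only the 3584 genes that have 2 or more probes, they were 557 and 480, because fewer genes entered. With the arrays scaled to equal spread, which shrinks the 60 min values by construction, they were 531 and 380. Centring gave 848 and 814, the probe value nearest to 0 gave 863 and 682, and leaving out low signal gave 900 and 643. The median over probes and leaving out exact zeros changed neither count. Using genes valued on all 3 arrays gave 906 and 756. Among the 673 genes checked, no value beyond 2-fold changed side, which was fixed beforehand and says nothing about robustness. New thresholds, scaling and leaving genes out cannot change a gene's sign, and centring shifted values by only 0.05. Of the genes beyond 2-fold with 2 probes, 0 had them on opposite sides, so the probe summaries could not change the side either. List medians beyond 2-fold kept their side as well. Values close to 0, such as that of HXT1 (0.02), can change sign under centring. Some genes named here were not among those checked. Of 143 list medians the sign turned in 5 under centring, 11 with the probe value nearest to 0, 7 without low signal and 15 with only genes of 2 or more probes, the largest of these at 0.02, 0.19, 0.33 and 0.46 in size. No paired analysis was possible because there is 1 array for each time. Single probes, the lack of a dye swap and unknown intensities limit every single-gene value.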

Other observations

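Subtelomeric gene families were mostly above 0 at 60 min, in 32 of 35 genes. At least 2-fold positive were 7 (20.0%) and negative 2 (5.7%), against 16.2% and 13.6% of all genes. The positive ones were all COS genes, COS8 at 3.44, COS7 at 2.71, COS2 at 2.36, COS3 at 2.32, COS1 at 2.30, COS4 at 1.34 and COS5 at 1.26, whereas COS12 (-2.02) and COS6 (-1.02) were negative. The PAU genes lay between 0.19 (PAU11) and 0.82 (PAU7). Members of each family are close copies, so their probes share targets. In the cell wall list 14 of 49 genes (28.6%) were at least 2-fold negative and 8 (16.3%) positive. The wall enzyme relative GAS3 had -2.58 and the mannoprotein TIP1 1.88. Of 6 aryl-alcohol dehydrogenase genes, 4 were at least 2-fold positive, AAD4 at 3.36.

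Genes outside the lists numbered 3779, of which 604 were at least 2-fold positive and 365 negative, together 25.6% against 29.8% of all genes. Unnamed reading frames were beyond 2-fold in 38.7% of 421 cases, against 29.0% of named genes. Of these reading frames 63 were of low signal, and the part of this in the difference was not tested. The highest of them was YHR112C (4.78). Chromosome medians lay between -0.16 for chromosome VI and 0.22 for chromosome III. Of 1486 probes without a gene symbol, 79 were at least 2-fold positive and 768 negative, and 49.7% matched the low-signal rule. That rule is anchored at -0.75, so low-signal probes lean to the negative side, and the part of this in the split was not tested.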
